A study of Mus musculus with 6 samples.

Results

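The genes examined here were 9 pericyte identity genes without a contractile role, taken by name from a count table of 31053 genes: Notch3, Mcam, Cspg4, Higd1b, Ndufa4l2, Rgs5, Pdgfrb, Kcnj8 and Abcc9. The comparison addressed whether they differed between WT and cD2KO mice, and whether they followed Notch3 from mouse to mouse. The RNA came from quiescent muscle stem cells (qMuSCs), sorted for GFP fluorescence from the hindlimb muscles of resting mice that were 3 to 4 months old. In these mice a nuclear GFP is driven by Pax7, the transcription factor that marks muscle stem cells. The 3 WT mice (c124, c129 and c130) were Pax7nGFP/+;Pax7+/+;Dio2Fl/Fl and the 3 cD2KO mice (fl125, fl126 and fl128) were Pax7nGFP/+;Pax7-CreERT2/+;Dio2Fl/Fl. Mice of both genotypes carried floxed alleles of Dio2, the gene of the deiodinase D2 that activates thyroid hormone, and all received tamoxifen. The WT mice lacked the Cre allele, which is thus a difference between the genotypes besides Dio2, and Cre was active in cells that express Pax7. A library was made for each mouse, so that n was 3 for each genotype.

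Pericytes are the mural cells that wrap capillaries and lie with the endothelium in a shared basement membrane, while smooth muscle cells wrap the larger vessels. Their recruitment depends on platelet-derived growth factor from the endothelium, which binds the receptor encoded by Pdgfrb, and their maturation depends on Notch3, a Notch receptor of mural cells that is activated by ligands on neighbouring cells and acts through the DNA-binding protein RBPJ. Rgs5 acts on G protein signaling, and Kcnj8 and Abcc9 act on membrane potential. In skeletal muscle, capillaries and their pericytes lie close to the muscle stem cells. The 9 genes are used as markers of pericytes in skeletal muscle, but Notch3 is also known in muscle stem cells, and these libraries do not tell which cells its RNA came from.

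The sequences just before the transcription starts of Notch3 and of 3 genes that moved together across the mice (Rgs5, Kcnj8 and Abcc9) are shown because Notch3 acts through RBPJ and thyroid hormone acts through its nuclear receptors, both of which bind short DNA motifs. They are RefSeq sequences of build GRCm38.p6 on the strand of the gene, 5′ to 3′, and end at the base before the annotated transcript. Capitals mark the RBPJ core, TGGGAA.
Notch3, chr17:32166891-32167140, minus strand: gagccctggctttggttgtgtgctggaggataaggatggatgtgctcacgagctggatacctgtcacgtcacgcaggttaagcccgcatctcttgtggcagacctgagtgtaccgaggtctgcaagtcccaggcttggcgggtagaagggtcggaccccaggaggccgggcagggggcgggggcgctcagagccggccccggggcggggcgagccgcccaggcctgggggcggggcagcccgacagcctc
Rgs5, chr1:169655251-169655500, plus strand: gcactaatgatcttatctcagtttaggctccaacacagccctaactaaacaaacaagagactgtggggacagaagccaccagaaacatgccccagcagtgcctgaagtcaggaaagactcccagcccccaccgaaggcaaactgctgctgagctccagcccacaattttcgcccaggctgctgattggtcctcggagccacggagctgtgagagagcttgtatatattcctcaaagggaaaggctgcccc
Kcnj8, chr6:142571615-142571864, minus strand: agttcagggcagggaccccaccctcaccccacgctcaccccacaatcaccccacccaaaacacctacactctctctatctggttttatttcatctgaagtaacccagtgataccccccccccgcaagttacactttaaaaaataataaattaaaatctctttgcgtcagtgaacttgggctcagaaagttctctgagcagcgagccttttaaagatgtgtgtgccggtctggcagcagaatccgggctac
Abcc9, chr6:142702316-142702524, minus strand: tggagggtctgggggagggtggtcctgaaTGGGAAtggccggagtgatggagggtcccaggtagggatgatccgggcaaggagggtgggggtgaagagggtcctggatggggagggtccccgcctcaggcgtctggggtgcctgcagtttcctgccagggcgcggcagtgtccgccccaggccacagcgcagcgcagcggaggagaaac

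RefSeq promoters of 6 of the 9 genes were used. For the 9 genes, any entry on chr18, where Pdgfrb lies, was left out of the search. A window of 300 bases, with 250 before and 50 after the RefSeq start, was searched on both strands. The thyroid hormone receptor half-site, AGGTCA, was in 0 of the 6 windows and in 16.3% of 32851 promoters of that length. The RBPJ core was in 2 of the 6, those of Abcc9 and Kcnj8, and in 25.6% of all promoters. In Abcc9 it lies among the bases printed, and in Kcnj8 within the 50 bases after the start. A match shows only that these letters occur in the window. The Notch3 window held neither motif and had a GC content of 70.0%, against a median of 52.7% over all promoters.

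Total counts ranged from 2184073 to 3897787 per mouse, so that 3 counts stood for 0.768 to 1.36 CPM (counts scaled to the library size). Intervals of the counts themselves cover counting error only, since molecular identifiers are not named in the sources used here. Dio2 was barely detected, with 21, 5 and 10 counts in the 3 WT mice (throughout in the order c124, c129, c130) and 15, 5 and 1 counts in the 3 cD2KO mice (fl125, fl126, fl128). Which part of a transcript these libraries read is not given in the sources used here, and at these counts Dio2 is no check of the genotype. The cells expressed the muscle stem cell gene Pax7 in every mouse, at 211 to 687 CPM, and also held RNA of other cells. The mouse fl125 stood apart, with a sum of 217 CPM over 14 immune markers against 2282 and 2733 CPM in the other cD2KO mice and 4026 to 7501 CPM in WT. The fold changes and correlations of the 9 genes and the counts of the lists are therefore also given without it.

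All 9 genes passed the expression minimum (a mean of normalized counts above 10), with 171 to 8389 counts per gene and mouse. Of these, 2 were higher in cD2KO at the study's line of an unadjusted p under 0.05, Notch3 and Mcam, and 0 were lower, as also with DESeq2 and limma voom. Over all 11633 genes tested, 5.34% were higher and 6.62% lower at that line. At an adjusted p under 0.05, 0 of the 9 genes passed in the quasi-likelihood test of edgeR, where 0.0086% of all genes (1 gene) did, and 0 in DESeq2 and limma voom. Without an expression minimum both Notch3 (adjusted p = 0.0246) and Mcam (adjusted p = 0.0382) passed that line in edgeR, in a fit where 2.83% of 18040 genes did, against 2.22% of all genes in DESeq2 with the minimum. In all, 6 of the 9 fold changes were above 0 and 3 below, with a median log2 fold change of 0.25 against -0.02 over all genes tested. In 2 of the 9, again Notch3 and Mcam, each cD2KO mouse was above each WT mouse, as in 8.05% of all genes, and the other 7 overlapped between genotypes. In 0 of the 9 was each cD2KO mouse below each WT mouse, against 10% of all genes. These are bulk samples, in which fewer cells of a type and less RNA per cell cannot be told apart.

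**Figure D1:**
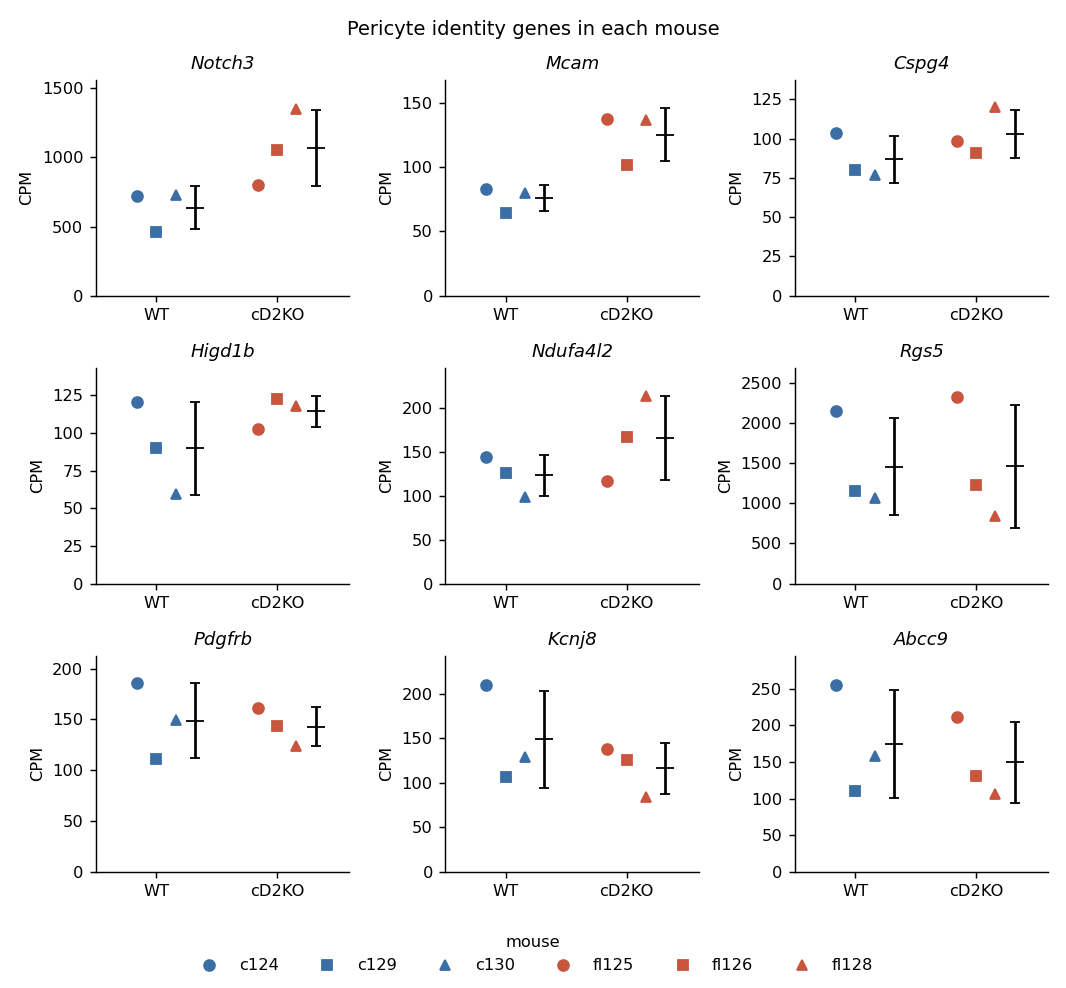
CPM of each of the 9 pericyte identity genes on a linear axis from 0, with a point per mouse (WT in blue, cD2KO in red) and the mean with its SD in black to the right of each group. In the Notch3 and Mcam panels all 3 cD2KO mice lie above all 3 WT mice, and in the bottom row the mice c124 and fl125 are the highest of their genotype.

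Notch3 (ENSMUSG00000038146, chr17:32120820-32166852, minus strand, mm10) encodes the Notch receptor of mural cells. It was at 722, 460 and 729 CPM in the WT mice and at 802, 1054 and 1351 CPM in the cD2KO mice. The lowest cD2KO mouse, fl125, was thus only slightly above the highest WT mouse, and fl128 was the highest, followed by fl126. WT mice averaged 637 ± 153 CPM and cD2KO mice 1069 ± 275 CPM (SD, n = 3 each). The log2 fold change was 0.75 with a standard error of 0.25 (95% confidence interval 0.22 to 1.28), with an unadjusted p of 0.00901 and an adjusted p of 0.217 in edgeR. Leaving out 1 mouse at a time gave 0.54 (without fl128) to 0.95 (without fl125, where the adjusted p was 0.0428 and 2.49% of all genes had one under 0.05), with an unadjusted p under 0.05 in 6 of 6 fits. The gene overlaps the antisense gene Gm17276 over 488 exonic bases, on which only 6 counts were placed in all mice together, and the use of strand in counting was not stated.

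Between the genotypes, contractile smooth muscle genes were higher in cD2KO, as Notch3 was. Of 16 such genes, all tested, 14 were higher and 0 lower in cD2KO, with a median log2 fold change of 0.94. Their sum was 10924 to 15244 CPM in WT and 19549 to 36336 CPM in cD2KO, and none was at 0. Cnn1, a calponin of smooth muscle, had a log2 fold change of 1.44 (SE 0.25, unadjusted p = 5.39e-05, adjusted p = 0.0885) and Tagln, an actin-binding protein of smooth muscle, one of 0.95 (SE 0.19, unadjusted p = 0.000232, adjusted p = 0.0885). With the mean log2 CPM of the 16 genes as a covariate in edgeR, the log2 fold change of Notch3 was 0.02 (unadjusted p = 0.948, adjusted p = 0.993). That mean was 8.10 to 8.29 in WT and 8.53 to 9.45 in cD2KO without overlap, so genotype and contractile RNA cannot be told apart in these 6 mice. Within WT the mean was lowest in c130, the mouse with the highest Notch3. Within cD2KO both rose in the order fl125, fl126 and fl128. No correlation between them was computed. Divided by Acta2, smooth muscle actin, Notch3 was at a ratio of CPM of 0.182, 0.294 and 0.298 in WT and 0.181, 0.188 and 0.171 in cD2KO, which overlapped. Divided by Pdgfrb it was at 3.88, 4.13 and 4.89 in WT and 4.96, 7.34 and 10.9 in cD2KO, which did not overlap, although 3 mice against 3 cannot give a two-sided exact permutation p under 0.1.

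Mcam (ENSMUSG00000032135, chr9:44134469-44142727, plus strand) encodes a cell adhesion molecule of the immunoglobulin superfamily on mural and endothelial cells. Its values were 83.0, 64.2 and 80.0 CPM in the WT mice and 138, 102 and 137 CPM in the cD2KO mice, without overlap. Unlike Notch3, it was as high in fl125 as in fl128. WT mice averaged 75.7 ± 10.1 CPM and cD2KO mice 125 ± 20.6 CPM (SD, n = 3 each), which gave a log2 fold change of 0.73 (SE 0.21, 95% confidence interval 0.28 to 1.17) with an unadjusted p of 0.00355 and an adjusted p of 0.154 in edgeR. Leaving out 1 mouse at a time gave 0.64 to 0.86, with a p under 0.05 in 6 of 6 fits. With the contractile score as a covariate the log2 fold change was 0.72 (unadjusted p = 0.0518, adjusted p = 0.487), close to its size without the covariate but past the threshold no longer. Of 14 tested markers of endothelial cells, which also express Mcam, 0 were higher and 8 lower, and 2 of the 14 fold changes were above 0. The part of endothelial cells in the values of Mcam was not tested. The antisense gene Gm10687 overlaps Mcam over 17 exonic bases and held 127 counts over the 6 mice.

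Cspg4 (ENSMUSG00000032911, chr9:56865033-56899870, plus strand) encodes a chondroitin sulfate proteoglycan of the pericyte surface and was the least variable of the 9 genes, with the highest mouse 1.57-fold above the lowest. It was at 104, 79.7 and 76.5 CPM in WT and 98.3, 90.6 and 120 CPM in cD2KO. The groups overlapped, since c124 was above fl125 and fl126. The log2 fold change was 0.25 (SE 0.21, 95% confidence interval -0.20 to 0.70), with an unadjusted p of 0.251 and an adjusted p of 0.706 in edgeR. Among the 9 genes, the cell surface proteins Mcam and Cspg4 thus had different calls. Whether their fold changes differ from each other was not tested.

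Higd1b (ENSMUSG00000020928, chr11:102835849-102838040, plus strand), a small mitochondrial protein of the hypoxia-inducible gene domain family, was at 121, 89.7 and 59.2 CPM in WT and 103, 122 and 118 CPM in cD2KO. The WT mice spread widely and c124 was within the range of cD2KO. Its log2 fold change was 0.34 (SE 0.24, 95% confidence interval -0.18 to 0.87, unadjusted p = 0.179, adjusted p = 0.632 in edgeR). It passed the threshold in 1 of 6 fits with a mouse left out, at 0.62 without c124 (unadjusted p = 0.0298).

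Ndufa4l2 (ENSMUSG00000040280, chr10:127514967-127517154, plus strand), a paralog of Ndufa4 and a target of hypoxia-inducible factors, was at 145, 127 and 99.0 CPM in WT and 118, 167 and 214 CPM in cD2KO. Only fl125 lay within the WT range, and fl126 and fl128 were above it. The log2 fold change was 0.43 (SE 0.24, 95% confidence interval -0.08 to 0.94, unadjusted p = 0.0928, adjusted p = 0.511 in edgeR). Without fl125 the fold change in edgeR was 0.66 (unadjusted p = 0.00655), and without fl128 it was 0.20 (unadjusted p = 0.412), and the call depended on the mice included. The gene shares 32 exonic bases with Shmt2 on the other strand, which held 528 counts over the 6 mice.

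The remaining 4 genes, Rgs5, Kcnj8, Abcc9 and Pdgfrb, did not pass the test in either direction, and in all 4 the highest WT mouse was c124 and the highest cD2KO mouse was fl125. Rgs5 (ENSMUSG00000026678, chr1:169655501-169695813, plus strand), a regulator of G protein signaling that shortens the signal of G protein-coupled receptors and a classical pericyte marker, was at 2148, 1153 and 1069 CPM in WT and 2317, 1223 and 840 CPM in cD2KO. Both genotypes spanned nearly the same range, with means of 1456 ± 600 CPM (WT) and 1460 ± 767 CPM (cD2KO), given with the SD of 3 mice each. The log2 fold change was 0.00 (SE 0.40, 95% confidence interval -0.90 to 0.91, unadjusted p = 0.995, adjusted p = 0.999 in edgeR), an interval that held sizeable changes in both directions. Without fl125 the log2 fold change was -0.46 (unadjusted p = 0.153).

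Kcnj8 (ENSMUSG00000030247, chr6:142564837-142571614, minus strand) and Abcc9 (ENSMUSG00000030249, chr6:142587862-142702315, minus strand) encode the pore-forming and the sulfonylurea-binding subunit of the ATP-sensitive potassium channel of mural cells, and lie 16247 bases apart. Kcnj8 was at 210, 107 and 128.8 CPM in WT and 138, 126 and 84.2 CPM in cD2KO, with a log2 fold change of -0.36 (SE 0.27, 95% confidence interval -0.94 to 0.22, unadjusted p = 0.20, adjusted p = 0.652 in edgeR). Abcc9 was at 255, 110 and 157 CPM in WT and 212, 130 and 107 CPM in cD2KO, with a log2 fold change of -0.23 (SE 0.33, 95% confidence interval -0.95 to 0.49, unadjusted p = 0.503, adjusted p = 0.856). Both overlapped between genotypes. The ratio of Kcnj8 to Abcc9 within a mouse ranged only from 0.652 (fl125) to 0.967 (c129), less than the 2.49-fold range of Kcnj8 or the 2.39-fold range of Abcc9. Abcc9 overlaps the antisense gene 5330439B14Rik over 158 exonic bases, which had 0 counts in these libraries.

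Pdgfrb (ENSMUSG00000024620, chr18:61045150-61085061, plus strand), the receptor through which endothelial growth factor recruits pericytes, was at 186, 111 and 149 CPM in WT and 162, 144 and 123 CPM in cD2KO. All 3 cD2KO mice lay within the WT range. The log2 fold change was -0.06 (SE 0.22, 95% confidence interval -0.53 to 0.41, unadjusted p = 0.783, adjusted p = 0.950 in edgeR). Leaving out 1 mouse at a time, its log2 fold change ranged from -0.21 to 0.13. Without fl125, the mouse that stood apart, the fold changes not given above were 0.69 for Mcam, 0.32 for Cspg4, 0.45 for Higd1b, -0.12 for Pdgfrb, -0.47 for Kcnj8 and -0.53 for Abcc9, and only that of Mcam among these had an unadjusted p under 0.05.

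**Figure D2:**
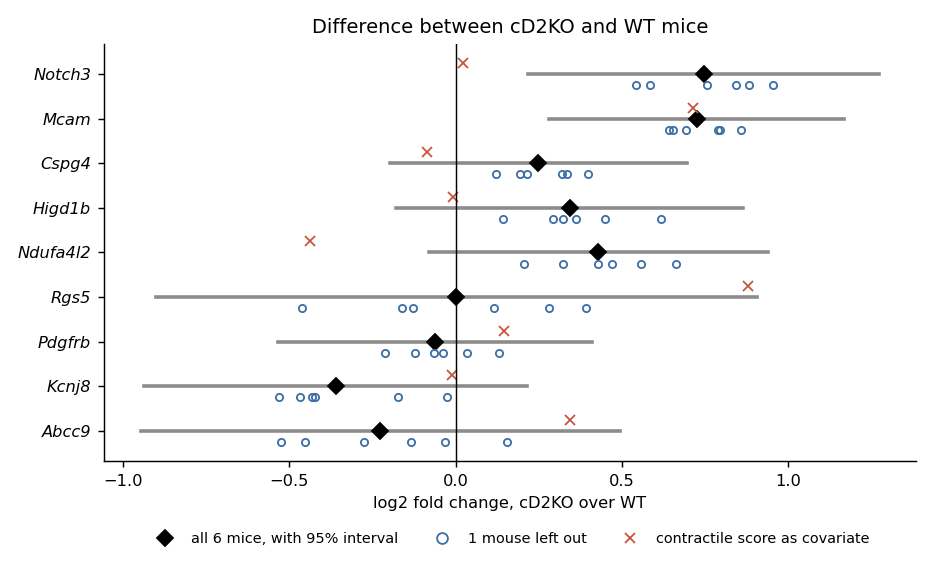
Log2 fold change of each gene, cD2KO over WT, from edgeR with all 6 mice (black diamonds with 95% confidence intervals as gray bars), with 1 mouse left out (blue circles) and with the contractile score as a covariate (red crosses). The intervals of Notch3 and Mcam lie above 0, and with the covariate the cross of Notch3 lies at 0.02 while that of Mcam stays at 0.72.

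Across the 6 mice, Pearson's r of log2 CPM with Notch3 was above 0.7 for Mcam, Cspg4 and Ndufa4l2 and between -0.31 and 0.09 for Rgs5, Pdgfrb, Kcnj8 and Abcc9, and whether these r differ from each other was not tested. Over the 8 genes compared, 0 had an adjusted p under 0.05 and 1 an unadjusted p under 0.05, and with 6 mice a two-sided exact permutation test cannot give a p under 0.00278. Mcam had the highest r with Notch3 (Pearson's r = 0.80, exact permutation p = 0.0444, adjusted p = 0.3; Spearman's rho = 0.77, exact permutation p = 0.103, adjusted p = 0.663). Without fl128 and c129, the mice farthest from the median of Notch3, the r of Mcam was 0.35. That value covers a narrower range of Notch3, so it cannot show whether the relation rested on these mice. With any 1 mouse left out the r of Mcam was 0.63 (without c129) to 0.98 (without fl125). Ndufa4l2 had an r of 0.71 (exact permutation p = 0.113, adjusted p = 0.3; rho = 0.54, exact permutation p = 0.297, adjusted p = 0.663), which was 0.68 without these mice. Cspg4 had the same r of 0.71 (exact permutation p = 0.108, adjusted p = 0.3; rho = 0.49, exact permutation p = 0.356, adjusted p = 0.663), but 0.01 without these mice. Higd1b lay lower, with an r of 0.45 (exact permutation p = 0.385, adjusted p = 0.769; rho = 0.43, exact permutation p = 0.419, adjusted p = 0.663).

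The other 4 genes had an r near or below 0. It was 0.09 for Pdgfrb (exact permutation p = 0.894, adjusted p = 0.894; rho = -0.09, exact permutation p = 0.919, adjusted p = 0.919) and -0.16 for Abcc9 (exact permutation p = 0.739, adjusted p = 0.844; rho = -0.37, exact permutation p = 0.497, adjusted p = 0.663). Rgs5 was at -0.29 (exact permutation p = 0.582, adjusted p = 0.776; rho = -0.26, exact permutation p = 0.658, adjusted p = 0.752) and Kcnj8 at -0.31 (exact permutation p = 0.569, adjusted p = 0.776; rho = -0.37, exact permutation p = 0.497, adjusted p = 0.663). Without fl128 and c129 these values were -0.63 for Pdgfrb, -0.71 for Abcc9, -0.32 for Rgs5 and -0.53 for Kcnj8. For comparison, the median r of all 11632 other tested genes with Notch3 was -0.05, and 47.0% of them were above 0. Mcam exceeded 93.9% of all tested genes in its r with Notch3, Ndufa4l2 and Cspg4 89.1% each, and Kcnj8 35.2%. Without fl125, r over the 5 other mice was 0.74 for Ndufa4l2, 0.71 for Cspg4, 0.45 for Higd1b, 0.10 for Pdgfrb, -0.18 for Abcc9, -0.31 for Kcnj8 and -0.37 for Rgs5.

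Since the genotypes themselves differ in Notch3 and Mcam, r was also computed on deviations from the mean of each genotype, as a description with 3 mice per genotype. It was 0.52 for Ndufa4l2, 0.51 for Cspg4, 0.41 for Mcam, 0.23 for Pdgfrb, 0.05 for Higd1b and -0.39 for Rgs5, and 0.00 after rounding for Kcnj8 and Abcc9. Rgs5 had the lowest of these values. Within cD2KO the ratio of Notch3 to Rgs5 was 0.346 in fl125, 0.862 in fl126 and 1.61 in fl128. In WT this ratio was 0.336, 0.399 and 0.682, and the genotypes overlapped.

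Among themselves, the 9 genes fell into 2 sets by their correlations. The sets were seen in these values, and the correlations are a description over 6 mice that share their libraries and depth. In the 6 pairs among Rgs5, Pdgfrb, Kcnj8 and Abcc9, r ranged from 0.77 to 0.95 (median 0.89), and on deviations from the genotype means from 0.77 to 0.95 (median 0.92). In the 10 pairs among Notch3, Mcam, Cspg4, Higd1b and Ndufa4l2 it ranged from 0.44 to 0.80 (median 0.72), and on deviations from -0.11 to 0.69 (median 0.51). In the 20 pairs between the sets it ranged from -0.41 to 0.26 (median 0.06), and on deviations from -0.40 to 0.55 (median 0.22). On deviations the ranges within the second set and between the sets thus overlapped, with Abcc9 and Mcam at 0.55. Without fl125 r ranged over the 5 other mice from 0.78 to 0.96 in the first set, from 0.45 to 0.98 in the second and from -0.42 to 0.28 between them. The first set kept its high correlations within genotypes, whereas the second had lower ones there, with Mcam and Higd1b at 0.44 over all mice and at -0.11 on deviations.

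**Figure D3:**
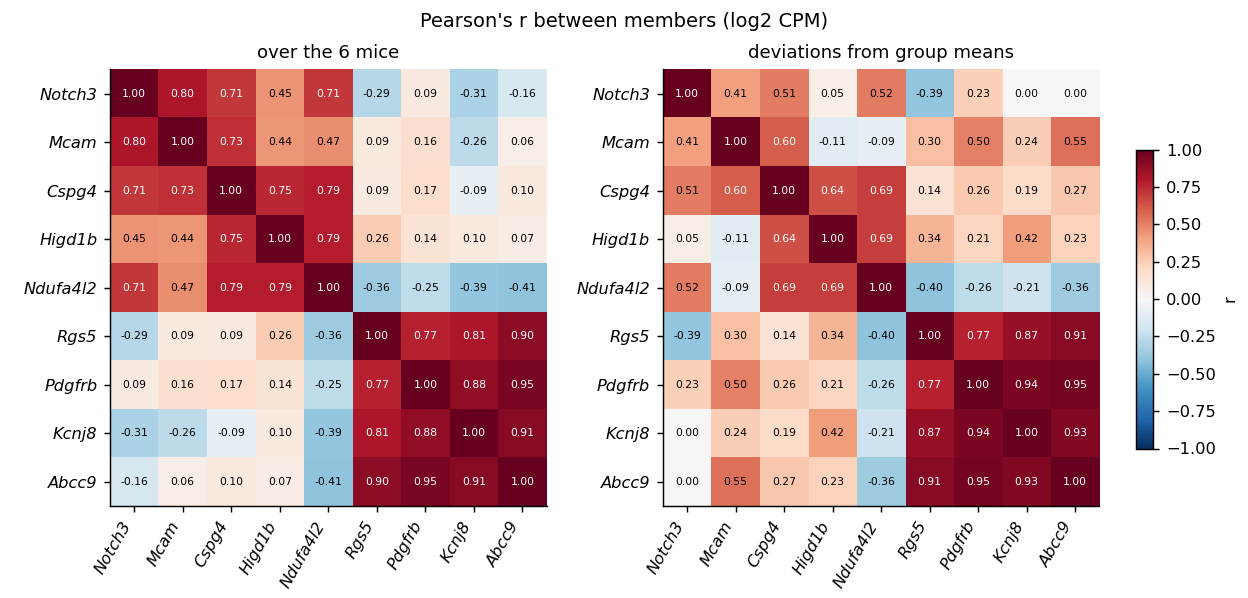
Pearson's r of log2 CPM for each pair of the 9 genes, over the 6 mice (left) and on deviations from the genotype means (right), with the color scale from -1 to 1. The block of Rgs5, Pdgfrb, Kcnj8 and Abcc9 at the lower right lies between 0.77 and 0.95 in both panels, and the block that starts with Notch3 at the upper left is paler in the right panel.

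The mean log2 CPM of Rgs5, Pdgfrb, Kcnj8 and Abcc9 was 8.58, 7.63 and 7.90 in WT and 8.34, 7.86 and 7.46 in cD2KO. The mean of the other 5 genes was 7.34, 6.94 and 6.93 in WT and 7.39, 7.51 and 7.81 in cD2KO. The mice c124 and fl125 were therefore high in the first set, while in the second fl128 was highest and each cD2KO mouse was above each WT mouse. The margin was small, with fl125 at 7.39 and c124 at 7.34. The second set was formed from correlations in these same mice and holds Notch3 and Mcam, whose mice did not overlap between genotypes. Its separation is thus no further result, and Cspg4, Higd1b and Ndufa4l2 in it each overlapped. Immune RNA moved with the first set in reverse, with sums of 4026, 7501 and 4984 CPM in WT and 217, 2282 and 2733 CPM in cD2KO, lowest in c124 and fl125 of their genotypes. With the mean log2 CPM of the immune markers as a covariate in edgeR, the log2 fold change was -1.01 for Rgs5 (unadjusted p = 0.00517, adjusted p = 0.137), -1.0 for Abcc9 (unadjusted p = 0.00333, adjusted p = 0.113) and -0.80 for Kcnj8 (unadjusted p = 0.0207, adjusted p = 0.259). In the same fit Notch3 was at 1.0 (unadjusted p = 0.00279, adjusted p = 0.103) and Mcam at 0.54 (unadjusted p = 0.0507, adjusted p = 0.365). Ndufa4l2 passed the unadjusted line there, at 0.82 (unadjusted p = 0.00604, adjusted p = 0.144), so the 2 genes called higher were Notch3 and Ndufa4l2. In that fit 8.02% of all genes were higher and 5.73% lower. The immune score was 7.49 to 8.58 in WT and 3.50 to 6.85 in cD2KO without overlap, and genotype and immune RNA cannot be told apart in these mice. The score of fl125 was 3.50, against 6.68 in fl126 and 6.85 in fl128. Without fl125 and without a covariate, the unadjusted p in edgeR was 0.153 for Rgs5, 0.112 for Abcc9 and 0.127 for Kcnj8. Whether the calls with the immune score rest on fl125 was not tested.

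**Figure D4:**
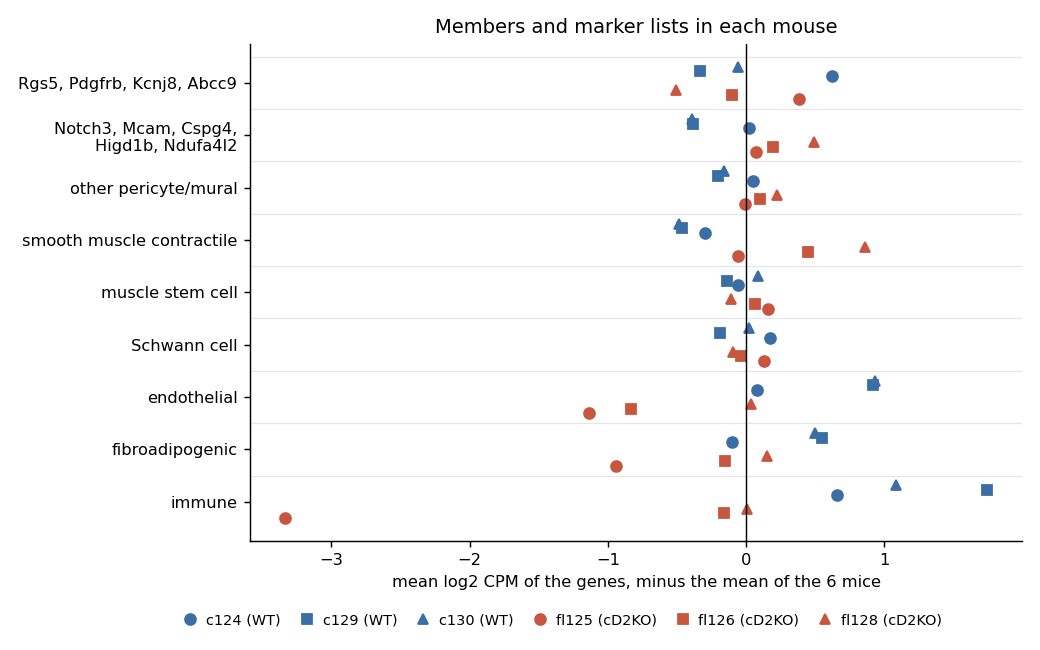
Mean log2 CPM of each set of genes in each mouse, minus the mean of the 6 mice (WT in blue, cD2KO in red, a symbol per mouse). Rgs5, Pdgfrb, Kcnj8 and Abcc9 are highest in c124 and fl125, in the set of Notch3 and in the contractile genes each cD2KO mouse is above each WT mouse, and the immune markers of fl125 lie far below those of all other mice. The set of Notch3 was formed from correlations in these same mice.

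The partners of the 9 genes were read from the same fit, and 14 partner genes were higher and 5 lower in cD2KO when a gene held by more than 1 list is counted once. Without fl128 the number higher was 7. The lists were described by counts beside the 5.34% of genes higher and 6.62% lower over all genes tested, and 0 of their genes passed at an adjusted p under 0.05.

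Of 17 Notch receptors, ligands, cofactors and targets, 14 were tested, of which 1 was higher and 2 lower, with a median log2 fold change of 0.05. Notch2, a receptor also expressed by muscle stem cells, was at 61.2, 41.7 and 59.9 CPM in WT and 25.8, 26.0 and 25.1 CPM in cD2KO. It was lower by more than the spread between mice, with a log2 fold change of -1.08 (SE 0.25, unadjusted p = 0.000664, adjusted p = 0.0997), a direction opposite to that of Notch3. Rbpj, the DNA-binding protein on which all Notch receptors act, was also lower (log2 fold change -0.66, SE 0.22, unadjusted p = 0.00926, adjusted p = 0.22), at 67.6, 65.0 and 61.6 CPM in WT and 33.5, 44.5 and 44.6 CPM in cD2KO. Nrip2, a nuclear receptor-interacting protein of mural cells, was higher, at 210, 91.2 and 174 CPM in WT and 230, 251 and 324 CPM in cD2KO (log2 fold change 0.76, SE 0.27, unadjusted p = 0.0156, adjusted p = 0.281). Overlaps of Notch2, Rbpj and Nrip2 with other annotated genes were not measured here. Without stated strand use, some of their reads may belong to such genes. Heyl, a Notch target of mural and muscle stem cells chosen here after its values were seen, had a log2 fold change of 0.06 (SE 0.21, unadjusted p = 0.788, adjusted p = 0.951). The ratio of Notch3 to Heyl was 3.08, 3.03 and 3.41 in WT and 4.24, 5.10 and 5.92 in cD2KO, without overlap. No two-sided exact permutation p under 0.1 is possible with 3 mice against 3. Ratios of Notch3 to other Notch targets were not computed, so this holds for Heyl only.

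Of 7 other subunits of this and related potassium channels 5 were tested, 3 of them higher in cD2KO and 0 lower, with a median log2 fold change of 0.91, and Kcnj16 was at 0 counts. The 3 were Abcc8, the sulfonylurea receptor paralogous to Abcc9, Kcnj11, the pore-forming paralog of Kcnj8, and Kcnj12, an inward rectifier of muscle. Abcc8 was at 12.5, 12.9 and 20.1 CPM in WT and 22.6, 33.9 and 33.0 CPM in cD2KO (log2 fold change 0.98, SE 0.32, unadjusted p = 0.00802, adjusted p = 0.206). Kcnj11 was at 12.5, 14.4 and 13.5 CPM in WT and 19.9, 23.9 and 28.9 CPM in cD2KO (log2 fold change 0.85, SE 0.31, unadjusted p = 0.0152, adjusted p = 0.278). Kcnj12 had a log2 fold change of 0.91 (SE 0.33, unadjusted p = 0.0153, adjusted p = 0.280). In each of these 3 genes every cD2KO mouse was above every WT mouse, at levels of 29 to 108 counts. Whether they differ from Kcnj8 and Abcc9 in their fold change was not tested.

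Of 6 PDGF ligands and receptors other than Pdgfrb all were tested, and 0 were higher and 0 lower, with a median log2 fold change of 0.00 (at an unadjusted p under 0.05 in edgeR). Of 12 RGS proteins of the family of Rgs5 and their G protein partners 9 were tested, 0 higher and 1 lower, with a median of -0.10. The gene lower was Gnai3, an inhibitory G protein alpha subunit, with a log2 fold change of -0.88 (SE 0.31, unadjusted p = 0.0134, adjusted p = 0.260). Rgs4, which lies 45663 bases from Rgs5 and was named after its values were seen, was at 258, 239 and 231 CPM in WT and 292, 328 and 334 CPM in cD2KO, with a log2 fold change of 0.39 (SE 0.18, unadjusted p = 0.0528, adjusted p = 0.428). Its mice did not overlap between genotypes, whereas those of Rgs5 did.

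Of 13 paralogs of Higd1b and Ndufa4l2 and genes of the hypoxia response, 10 were tested, with 2 higher, 0 lower and a median log2 fold change of 0.21, and Higd1c was at 0. Cox4i2, a cytochrome c oxidase subunit of pericytes, was at 92.7, 65.0 and 80.6 CPM in WT and 72.9, 183 and 324 CPM in cD2KO. Its log2 fold change of 1.28 (SE 0.49, unadjusted p = 0.0361, adjusted p = 0.380) came from fl126 and fl128, as in Ndufa4l2, with fl125 in the WT range. Hif1a, the hypoxia-inducible transcription factor, had a log2 fold change of 0.55 (SE 0.22, unadjusted p = 0.0247, adjusted p = 0.346), with averages of 55.5 ± 7.27 CPM (WT) and 81.3 ± 15.7 CPM (cD2KO), each with the SD of 3 mice.

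Of 34 other pericyte and mural identity genes 31 were tested, of which 10 were higher and 2 lower, with a median log2 fold change of 0.27, close to the 0.25 of the 9 genes. Foxf2, a transcription factor of brain pericytes, was at 0 counts. Among those higher, Olfml2a, an extracellular matrix protein, averaged 139 ± 24.9 CPM in WT mice and 225 ± 15.9 CPM in cD2KO mice (log2 fold change 0.70, SE 0.20, unadjusted p = 0.00334, adjusted p = 0.151). Aoc3, a vascular amine oxidase, went from 177 ± 35.6 to 308 ± 73.2 CPM (log2 fold change 0.80, SE 0.23, unadjusted p = 0.00355, adjusted p = 0.154). Pde5a, the cGMP phosphodiesterase of smooth muscle, went from 70.4 ± 13.1 to 120 ± 23.1 CPM (log2 fold change 0.77, SE 0.22, unadjusted p = 0.00360, adjusted p = 0.155). The 2 lower genes were Postn, a matrix protein also made by fibroblasts (log2 fold change -0.85, SE 0.22, unadjusted p = 0.00187, adjusted p = 0.126), and Ednrb, an endothelin receptor also found on endothelial cells (log2 fold change -0.90, SE 0.25, unadjusted p = 0.00285, adjusted p = 0.143). With the mean log2 CPM of these genes as a covariate in edgeR, 0 of the 9 genes passed at an unadjusted p under 0.05. Calls fell over all genes too, with 1.68% higher and 2.11% lower in that fit. The log2 fold change was then 0.23 for Notch3 (unadjusted p = 0.470, adjusted p = 0.997) and 0.60 for Mcam (unadjusted p = 0.0580, adjusted p = 0.997).

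Markers of other cells moved with the genotypes too, and their part in the results beyond the covariate fits above was not tested. Of 14 endothelial markers tested, 8 were lower, with Flt1 at a log2 fold change of -1.71 (SE 0.33, unadjusted p = 0.000122, adjusted p = 0.0885) and Kdr at -1.66 (SE 0.44, unadjusted p = 0.00217, adjusted p = 0.132), both receptors of vascular endothelial growth factor. The sum of the 18 endothelial markers was 327 to 511 CPM in WT and 253 to 339 CPM in cD2KO. Of 12 immune markers tested 4 were lower, with Ptprc, the leukocyte antigen, at -1.98 (SE 0.60, unadjusted p = 0.00943, adjusted p = 0.221) and Itgam, an integrin of myeloid cells, at -2.32 (SE 0.73, unadjusted p = 0.0173, adjusted p = 0.297), and Cd79a was at 0. Of 12 fibroadipogenic markers tested 1 was higher and 3 lower, with sums of 4205 to 6662 CPM in WT and 2607 to 5517 CPM in cD2KO. In this list Mfap5 was at 0.57 (SE 0.26, unadjusted p = 0.0454, adjusted p = 0.404), Smoc2 at -0.84 (SE 0.20, unadjusted p = 0.00105, adjusted p = 0.105) and Gsn at -0.61 (SE 0.22, unadjusted p = 0.0147, adjusted p = 0.273).

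Of 14 muscle stem cell markers 3 were higher and 1 lower, with sums of 1249 to 1638 CPM in WT and 1564 to 1959 CPM in cD2KO. Itga7, an integrin of muscle, was at a log2 fold change of 0.71 (SE 0.21, unadjusted p = 0.00472, adjusted p = 0.171), Cdh15, a cadherin of muscle stem cells, at 0.51 (SE 0.22, unadjusted p = 0.0364, adjusted p = 0.381) and Cxcr4, a chemokine receptor, at -0.92 (SE 0.30, unadjusted p = 0.00748, adjusted p = 0.202). The ratio of Notch3 to Pax7 was 1.77, 2.17 and 1.69 in WT and 1.17, 2.33 and 4.30 in cD2KO, which overlapped. Schwann cell markers summed to 5460 to 8316 CPM in WT and 7516 to 8098 CPM in cD2KO, which overlapped.

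Without fl125 the count that moved most was that of the immune markers. In the fit without that mouse, where 7.93% of all genes were higher and 7.43% lower, 12 of 12 immune markers were lower (median log2 fold change -1.34) and 0 higher. Contractile genes were higher in 15 of 16 and lower in 0, endothelial markers lower in 7 of 15 and higher in 0, and fibroadipogenic markers higher in 1 and lower in 2 of 12. Muscle stem cell markers were higher in 1 and lower in 2 of 14. Of the partners, other pericyte and mural genes were higher in 12 and lower in 2 of 31, Notch genes higher in 1 and lower in 2 of 14, channel subunits higher in 3 and lower in 0 of 5, and hypoxia genes and paralogs higher in 3 and lower in 0 of 10. RGS and G protein genes were higher in 1 and lower in 2 of 10, and PDGF genes 0 in either direction of 6 (unadjusted p under 0.05 in edgeR).

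The genes whose log2 CPM was most like that of Notch3 over the 6 mice, out of 11632, were not among the other 8 pericyte genes. They were Pofut2 (r = 0.996), BC031181 (r = 0.995), Aprt (r = 0.993), Vamp2 (r = 0.993) and Susd2 (r = 0.993). Susd2 averaged 64.2 CPM in WT mice and 130 CPM in cD2KO mice, with a log2 fold change of 1.01 (unadjusted p = 0.00244, adjusted p = 0.136), and Vamp2 at 220 and 338 CPM, with one of 0.62 (unadjusted p = 0.0164, adjusted p = 0.289). The most opposite genes were Phip (r = -0.992), Trim5 (r = -0.991), Mfsd14a (r = -0.988), Ctso (r = -0.987) and Klf6 (r = -0.986). Klf6 averaged 206 CPM in WT mice and 122 CPM in cD2KO mice, with a log2 fold change of -0.75 (unadjusted p = 0.00734, adjusted p = 0.202). Both lists hold the extremes of 11632 correlations over 6 mice, and these r were not tested. The genes were picked by their relation to Notch3, which did not overlap between genotypes. Their fold changes are thus no separate result. The mean log2 CPM of the other 8 genes was followed most closely by Cnot3 (r = 0.987), Dixdc1 (r = 0.986), Cdkl3 (r = 0.981), Extl3 (r = 0.977) and Mrps5 (r = 0.972), of which none had an unadjusted p under 0.05 between genotypes.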

How the data were processed

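RNA of sorted qMuSCs from 6 mice, 3 for each genotype, was sequenced with a commercial digital RNA-seq service. The authors aligned the reads to mm10 and deposited raw counts, whole reads per gene without normalization. The submitters' processing notes name bcl2fastq, STAR 2.6.0a and HTSeq 0.9.1. Whether counting used strand or removed duplicates is not given in the sources used here. Symbols and coordinates came from GENCODE M21, in which 30934 of 31053 identifiers were found, and promoters from RefSeq for GRCm38.p6. A gene was tested if its DESeq2-normalized counts averaged more than 10, which held for 11633 genes. The edgeR package (4.0.16, R 4.3.3) scaled the counts by TMM and gave a robust quasi-likelihood test over the 6 mice without covariates. The threshold was an unadjusted p under 0.05, with Benjamini-Hochberg adjustment over all genes tested beside it. CPM used TMM-scaled library sizes, and log2 CPM a prior count of 2. Correlations with Notch3 were tested by two-sided exact permutation over the mice in SciPy 1.17.1 and adjusted over 8 genes. The edgeR step was also tested on simulated counts, with means and dispersions taken from these data.

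The 9 genes, the lists and the tests were chosen with earlier results of these data known. The genes named were the 9 genes, Dio2, the genes of each partner list with an unadjusted p under 0.05 (at most 3 in each direction by p) and of each marker list (at most 2), and the 5 genes most and least like Notch3, with the 5 most like the mean of the other 8. Pax7, Acta2, Heyl, Rgs4, Kcnj16, Foxf2, Higd1c and Cd79a were named after their values were seen. A gene of 1 marker list is not reported here. The replicates are separate mice. Depth was 2184073 to 3897787 counts per mouse, and genes at or under 1.36 CPM are near the limit of 3 counts. As alternatives, DESeq2 1.42.0 (Wald test), voom in limma 3.58.1, DESeq2 size factors, upper quartile factors, no minimum, a minimum of 50, non-robust estimation, an adjusted p, leaving out each mouse, and a contractile score as a covariate were run. Scores of other pericyte genes and of immune markers as covariates were chosen after seeing the data. No other columns or assays of the study were used here.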

Additional observations from a re-analysis of the deposited data

How the results depend on the processing

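Notch3 and Mcam kept their direction and an unadjusted p under 0.05 in 7 of 7 other tools, scalings and minimums and in 6 of 6 fits with a mouse left out. The number of the 9 genes higher in cD2KO, 2 in the main analysis, was 0 at an adjusted p under 0.05 (2 without an expression minimum, where 510 genes passed in all, and 1, Notch3, without fl125, where 293 did, against 1 in the main analysis and 258 in DESeq2), 0 with the contractile score as a covariate and 0 with the other pericyte and mural genes as a covariate. Of all genes, 4.14% were higher and 6.08% lower with the contractile score. With the other pericyte and mural genes these shares were 1.68% and 2.11%, against 5.34% and 6.62% in the main analysis. The number lower, 0 in the main analysis, was 3 with the immune score as a covariate, where the 2 higher were Notch3 and Ndufa4l2. In that fit 8.02% of all genes were higher and 5.73% lower. The number of partner genes higher, 14, ranged from 7 to 17 when a mouse was left out. Of 153 log2 fold changes recomputed for the 9 genes, 122 kept direction and call, 18 changed sign, 7 lost and 6 gained the call. All changes of sign were in genes that had not passed the test. The value of Rgs5 was -0.049 in limma voom, -0.00062 with upper quartile factors, -0.029 with a minimum of 50, -1.01 with the immune score, and -0.46 to 0.39 with a mouse left out. With a mouse left out, Pdgfrb ranged from -0.21 to 0.13 and Abcc9 from -0.53 to 0.16. With the contractile score as a covariate, Pdgfrb was at 0.14, Abcc9 at 0.34, Cspg4 at -0.085, Higd1b at -0.0077 and Ndufa4l2 at -0.44, and with the other pericyte and mural genes Cspg4 was at -0.062, Higd1b at -0.013 and Ndufa4l2 at -0.080. No r with Notch3 that was tested had an adjusted p under 0.05 in any setting. This call had little room to change, since fewer mice raise the smallest exact p possible and the values on deviations had no p. Of 88 values of r with Notch3, 81 kept their sign. The exceptions were Pdgfrb at -0.11 on CPM without a log and -0.63 without the mice farthest from the median, Kcnj8 at 0.0035 on deviations, and, with a mouse left out, the ranges of -0.86 to 0.56 for Pdgfrb, -0.67 to 0.19 for Rgs5, -0.83 to 0.27 for Kcnj8 and -0.86 to 0.29 for Abcc9. Apart from the scores used as covariates, the cause of these shifts was not tested. No paired analysis was possible because each mouse has a number of its own and the labels share none between genotypes.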
